A study of Oryza sativa with 6 samples.

Results

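The basic helix-loop-helix (bHLH) genes described here are the rice genes that carry a bHLH number among their symbols or synonyms in the RefSeq gene table, other than LAX1 and BHLH142, which also carry one. There were 14 such genes, and 10 of them had an array probe set that names 1 gene, out of 17905 genes measured in this way. The measured genes were BHLH148, RAI1 (BHLH003), BU1 (BHLH172), BCL1 (bHLH080), BC1 (bHLH081), IBH1 (BHLH175), TDR (OsbHLH005), EAT1 (BHLH141), IRO3 (BHLH063) and BHLH004. The other 4 genes, UDT1 (BHLH164), ILI3 (BHLH153), ILI5 (BHLH170) and APG (OsbHLH106), had no such probe set and were not analysed here. The rule takes only genes whose synonyms hold a number, so many further rice bHLH genes, MYC2 and RERJ1 among them, are outside it.

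bHLH proteins pair through their helix-loop-helix region, and most of them bind short DNA elements called E-boxes through the basic region beside it. Atypical members lack a working basic region and act by pairing with other bHLH proteins, which they block or release. In plants the family takes part in jasmonate and defence signalling, in tapetum development in the anther, in iron supply, and in cell elongation under brassinosteroids.

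Young inflorescences of 2 genotypes, all 4 to 5 mm long and from plants of the Japonica variety 9522 grown in a paddy field without special treatment, were measured on Affymetrix rice arrays. The groups were wild type and the sro mutant, with 3 biological replicates each. The sources used here do not give the allele, the number of plants behind each RNA or the plants' age. According to the labels, SRO expression is at its highest at this length, and most spikelets have started stamens and carpels. The question is how transcript levels differ between the genotypes at that time. No table used here names SRO itself, so its own level was not checked.

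Values are log2 intensities of probe sets. Array medians lay between 5.26 and 5.31. All 14 measured genes of a list of floral MADS-box genes with DL, which mark the labelled tissue, lay above the Magnaporthe level. That is the mean of 10 probe sets for the fungus Magnaporthe (4.65 in wild type and 4.69 in sro). It was used here as a level without target. It does not tell tissues apart, as just 14.2% of all genes averaged below it in both genotypes. Among genes for other tissues, 1 of 4 seed genes and 0 of 2 leaf genes did so. In sro 5 of the 14 floral genes rose and 0 fell, where 7.28% of all genes rose and 19.4% fell. Of the lists for other tissues, 1 of 2 leaf genes fell (CAB2R) and 0 of 4 seed genes were called by limma (1 had an unadjusted p under 0.05), and the late anther genes are given beside TDR and EAT1. The 5 prime probe set of the dap labelling spike read between 7.08 and 7.12 on the wild type arrays, and 9.74, 7.46 and 9.03 on sro arrays 1, 2 and 3. The 3 prime probe set read between 11.05 and 11.22 in wild type, and 11.31, 11.43 and 11.35 on sro arrays 1, 2 and 3. So sro replicate 2 lay nearest to wild type by the 5 prime probe set and farthest by the 3 prime probe set. The part of the spike in the results was not tested, but the 10 bHLH genes were also compared with sro represented by replicate 2 alone. That fit takes the spread from the 3 wild type arrays and assumes that the lone sro array varies like them. Precision is limited by the number of arrays.

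Of the 10 measured bHLH genes, 1 rose in sro (BHLH148), 4 fell (RAI1, BU1, BCL1 and BHLH004) and 5 were not called (BC1, IBH1, TDR, EAT1 and IRO3). A call is an adjusted p under 0.05 in limma, adjusted over all 57258 probe sets tested, and the same rule called 26.6% of the 17905 genes, 7.28% as higher and 19.4% as lower. The median log2 change was -0.25 over the 10 bHLH genes and -0.06 over all genes. In 7 of the 10 genes the sro arrays did not overlap the wild type arrays, against 53.3% of all genes. The calls for BHLH148 and RAI1 held whichever array was left out, whereas those for BCL1 and BHLH004 did not, and the count of genes called then ranged from 3 to 5. With sro replicate 2 alone against wild type, the median log2 change was -0.30 over the 10 bHLH genes and -0.04 over all genes. These are whole inflorescences, in which fewer cells of a type and less RNA per cell cannot be told apart.

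**Figure D1:**
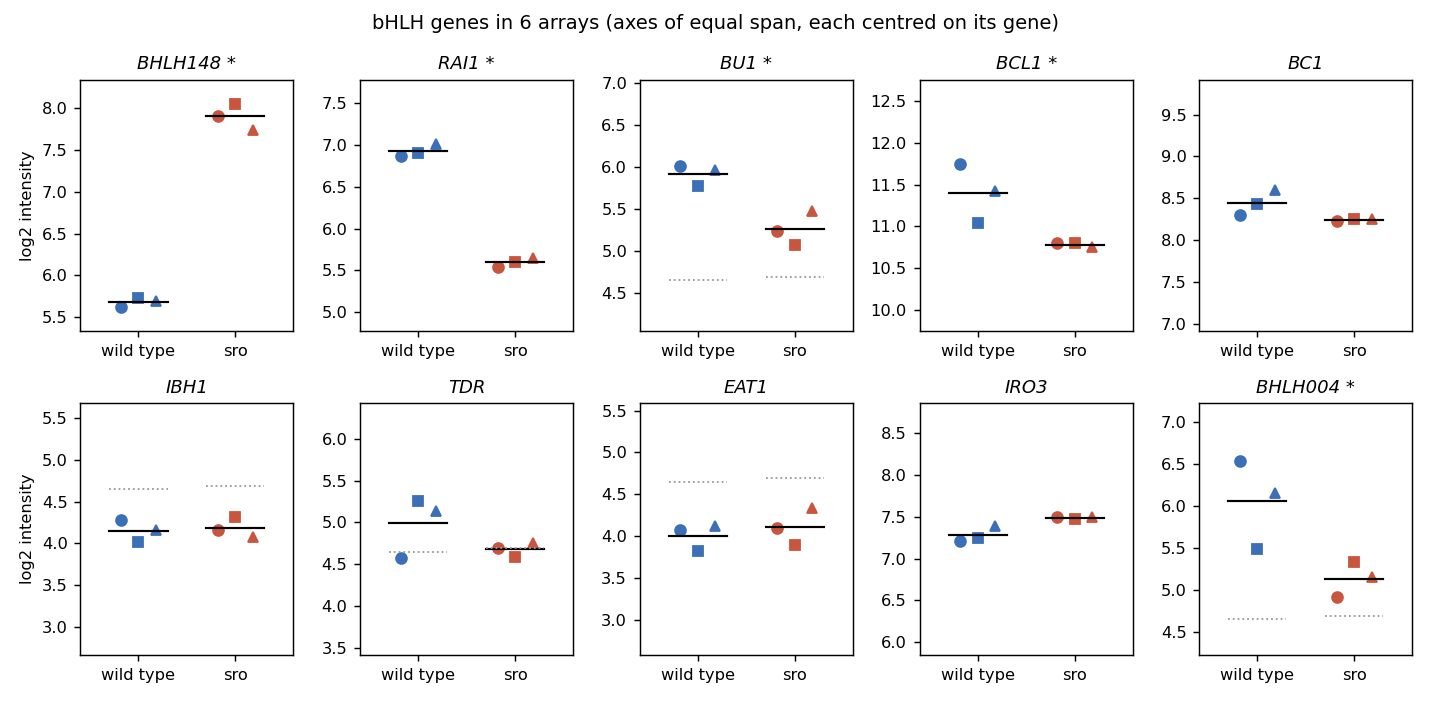
Log2 intensity of the 10 measured bHLH genes on each array, with wild type in blue and sro in red; circles, squares and triangles are replicates 1, 2 and 3, black lines are group means and dotted lines the mean of the Magnaporthe probe sets where it lies within the axis. Every axis spans the same number of log2 units, an asterisk marks an adjusted p under 0.05, and BHLH148 stands highest in sro by the widest gap while IBH1 and EAT1 lie below the dotted lines.

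BHLH148 and RAI1 both belong to defence and hormone signalling in rice. BHLH148 is an early jasmonate-responsive factor that takes part in drought tolerance and whose protein interacts with a JAZ repressor of jasmonate responses. RAI1 is activated downstream of the small GTPase OsRac1 in rice immunity and switches on defence genes. In sro they went opposite ways.

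BHLH148 (LOC4334060, chromosome 3) read 5.62, 5.73 and 5.70 in wild type replicates 1, 2 and 3. In sro it read 7.90, 8.05 and 7.74. Every sro array stood at least 2 log2 units above every wild type array. The log2 change was 2.21 (SE 0.09, 95% interval 2.02 to 2.41, limma adjusted p = 7.38e-06), a 4.64-fold rise that ranked 30 among the 17905 genes ordered by their rise. In wild type the gene averaged 5.68 ± 0.06 (SD, n = 3), about 1 log2 unit above the Magnaporthe level. With sro replicate 2 alone, the sro array nearest to wild type by the 5 prime but not the 3 prime dap probe set, the change was 2.37.

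RAI1 (LOC4331538, chromosome 3) read 6.87, 6.90 and 7.01 in wild type. The sro values were 5.54, 5.60 and 5.65. All 3 sro arrays lay more than 1 log2 unit below every wild type array, and the spread within each genotype was small (SD 0.07 in wild type and 0.06 in sro, n = 3). The log2 change was -1.33 (SE 0.07, 95% interval -1.48 to -1.18, limma adjusted p = 2.46e-05), a 2.51-fold fall that ranked 88 among the genes ordered by their fall. The sro mean of 5.60 was not far above the Magnaporthe level of 4.69. Leaving out single arrays gave changes between -1.36 and -1.29. With sro replicate 2 alone the change was -1.32 (limma adjusted p = 0.00673). BHLH148 and RAI1 were thus the bHLH genes with the largest change in each direction, and the only ones called in every alternative fit that was run.

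**Figure D2:**
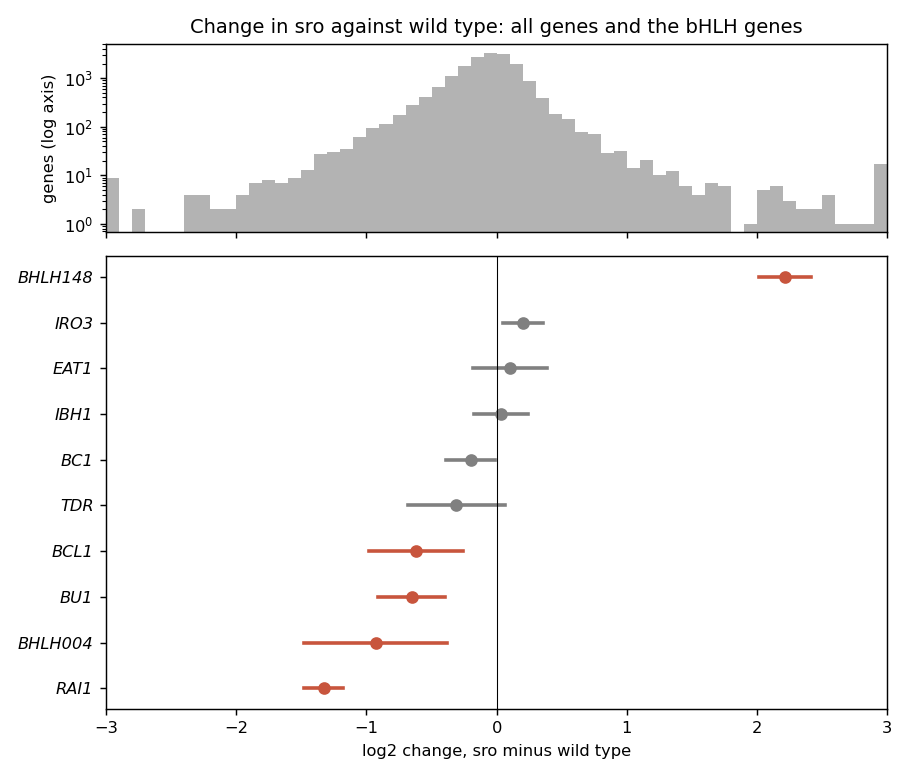
Top, the log2 change of all 17905 genes (number of genes on a log axis, values beyond 3 in either direction placed in the end bins). Bottom, the log2 change of each measured bHLH gene with its 95% interval, red where the adjusted p was under 0.05; BHLH148 at 2.21 and RAI1 at -1.33 mark the ends.

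JAZ repressors and the COI receptors that remove them set the activity of jasmonate-responsive bHLH factors, so the measured genes of that pathway are given beside BHLH148. Of 13 measured JAZ repressor genes, 3 rose, 3 fell and 7 were not called, with a median log2 change of -0.05. Among all genes, 7.28% were called higher and 19.4% lower. The JAZ genes that rose were JAZ9 (LOC4331832), JAZ10 (LOC4331834) and JAZ13 (LOC4348531). Those that fell were JAZ3 (LOC4345625), JAZ4 (LOC4347000) and JAZ8 (LOC4347164). JAZ10 rose by 2.38 on the log2 scale, and JAZ9 and JAZ13, whose wild type means lay below the Magnaporthe level, rose at least 4.66-fold and at least 25.6-fold, while the falls were between -0.73 and -0.53 on the log2 scale. The gene table gives the aliases OsJAZ3, OsJAZ4 and OsJAZ9 each to a gene that rose and to a gene that fell. It also gives the alias OsJAZ1 to 2 genes, JAZ1 (LOC4337240) and JAZ12 (LOC4348533), and it was not settled here which of them encodes the reported partner of BHLH148. JAZ1 read 12.86, 12.86 and 12.87 in wild type and 12.66, 12.69 and 12.70 in sro, groups that did not overlap, and missed the threshold (log2 change -0.18, limma adjusted p = 0.0596). JAZ12 read 8.14, 9.09 and 8.65 in wild type and 9.19, 9.19 and 9.24 in sro, also without overlap, and missed the threshold in the other direction (0.58, limma adjusted p = 0.0968). Of 4 further genes of the pathway (the receptor genes COI1A, COI1B and COI2, and NINJA1), COI1B rose by 0.23 (limma adjusted p = 0.0257) and the other 3 were not called.

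**Figure D3:**
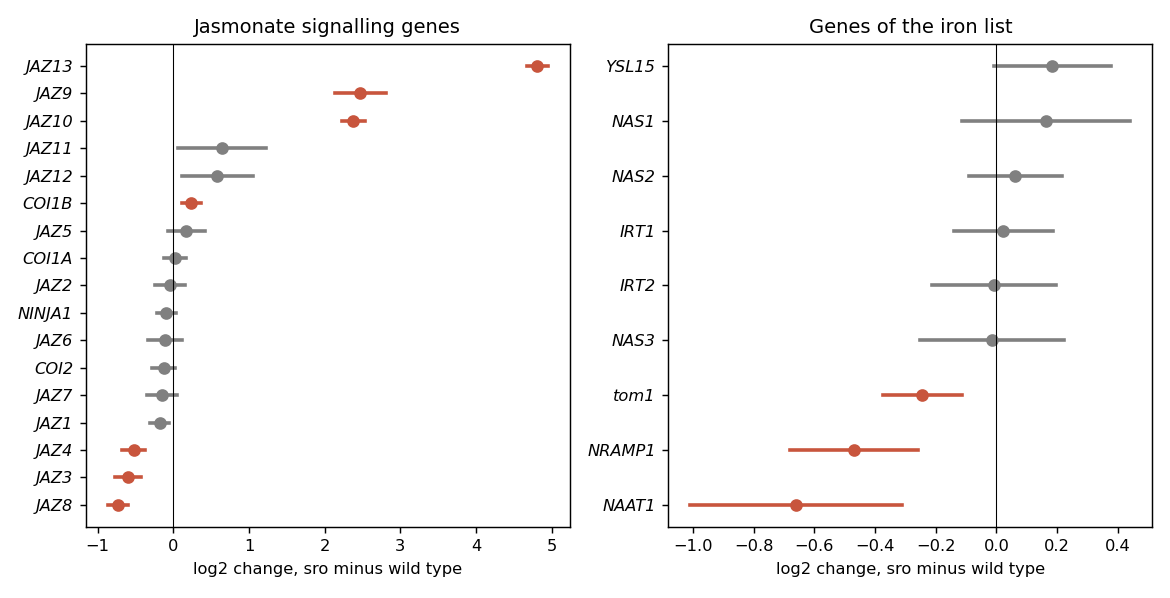
Log2 change with its 95% interval of the measured JAZ, COI and NINJA genes (left) and of the iron list (right), red where the adjusted p was under 0.05; the horizontal scales differ. JAZ13, JAZ10 and JAZ9 lie above 2 (JAZ13 and JAZ9 from a wild type level below the Magnaporthe mean) and JAZ8, JAZ3 and JAZ4 below -0.5. The 3 called genes of the iron list are lower in sro, where 19.4% of all genes were called lower.

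A second group acts on cell elongation and on the angle of the leaf blade. BU1 is an atypical bHLH protein that brassinosteroid induces and that promotes bending of the lamina joint. IBH1 is an inhibitor of elongation that is held in check by pairing with another atypical bHLH protein. BC1 is a bHLH activator that works in a complex with ILI5 (also called OsBUL1), and BCL1 is the gene named as its relative. Of the 4 measured genes of this group, 2 fell (BU1 and BCL1), none rose and 2 were not called (BC1 and IBH1), with a median log2 change of -0.41. For all genes the share called lower was 19.4% and the median -0.06. ILI3, ILI5 and APG, a repressor of grain length, also belong here and were among the genes not analysed.

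BU1 (LOC4340551, chromosome 6) read 6.01, 5.77 and 5.96 in wild type. In sro it read 5.23, 5.07 and 5.48. Each sro array lay below all wild type arrays, though sro replicate 3 came within 0.3 log2 units of wild type replicate 2. The log2 change was -0.65 (SE 0.11, 95% interval -0.91 to -0.40, limma adjusted p = 0.00725), a 1.57-fold fall. The sro mean of 5.26 was not far above the Magnaporthe level of 4.69. The call held whichever array was left out, with changes from -0.76 to -0.56, and with sro replicate 2 alone (-0.84, limma adjusted p = 0.0456). It was lost in an unmoderated linear model, in which each probe set has only its own spread (adjusted p = 0.0744).

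BCL1 (LOC4346166, chromosome 8) read 11.75, 11.04 and 11.42 in wild type. The sro arrays gave 10.80, 10.80 and 10.75. Wild type was spread over 0.7 log2 units (SD 0.36, n = 3) and sro hardly at all (SD 0.03), and the lowest wild type array, replicate 2, was still above every sro array. The log2 change was -0.62 (SE 0.16, 95% interval -0.98 to -0.26, limma adjusted p = 0.0338), a 1.54-fold fall. The call was lost at similar changes without wild type replicate 3 (-0.61, limma adjusted p = 0.103) or sro replicate 1, 2 or 3 (-0.63, -0.63 and -0.60, limma adjusted p = 0.0881, 0.0801 and 0.099). The change was -0.80 without wild type replicate 2 (limma adjusted p = 0.0043) and -0.44 without wild type replicate 1 (limma adjusted p = 0.0494). It was not called with sro replicate 2 alone (-0.60, limma adjusted p = 0.315) or in the unmoderated linear model (adjusted p = 0.171).

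BC1 (LOC4347540, chromosome 9) read 8.30, 8.43 and 8.60 in wild type. In sro it read 8.23, 8.25 and 8.25. The groups did not overlap, but the lowest wild type array stood only slightly above sro, and the change missed the threshold (-0.20, SE 0.08, 95% interval -0.39 to -0.01, limma adjusted p = 0.155). The within-array difference of BCL1 minus BC1, a comparison chosen after the values were seen, was 2.96 ± 0.44 (SD, n = 3) in wild type and 2.54 ± 0.04 in sro, lower in all sro arrays by a small margin. The difference between genotypes was -0.42 (exact permutation test, two-sided, p = 0.1, which is the lowest p possible with 3 arrays per group, so that this test cannot reach 0.05).

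IBH1 (LOC4337280, chromosome 4) was below the Magnaporthe level in both genotypes. Its brightest probe set read 4.28, 4.02 and 4.16 in wild type and 4.16, 4.32 and 4.08 in sro, and the values overlapped throughout (log2 change 0.03, SE 0.09, limma adjusted p = 0.847). The other 2 IBH1 probe sets were dimmer still, with means over all arrays of 3.59 and 3.19, and neither was called (limma adjusted p = 0.186 and 0.477). At such levels a difference was not measurable on these arrays.

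The third group acts in the tapetum, the cell layer that feeds developing pollen. TDR promotes the timely death and breakdown of the tapetum, EAT1 acts downstream of it in the same process, and UDT1, not analysed here, is required for early tapetum differentiation. TDR (LOC4328113, chromosome 2) read 4.58, 5.26 and 5.14 in wild type. The sro values were 4.70, 4.59 and 4.76. Wild type replicates 2 and 3 stood above all sro arrays and replicate 1 at their lower edge, and the sro mean of 4.68 was at the Magnaporthe level. The log2 change was -0.31 (SE 0.16, 95% interval -0.68 to 0.06, limma adjusted p = 0.25). Without wild type replicate 1 it was -0.52 (limma adjusted p = 0.00939), which would be a call, and without wild type replicate 2 it was -0.18 (limma adjusted p = 0.504).

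EAT1 (LOC4336865, chromosome 4) lay below the Magnaporthe level in both genotypes, at 4.08, 3.83 and 4.12 in wild type and 4.10, 3.90 and 4.34 in sro, with overlapping values (log2 change 0.10, SE 0.12, limma adjusted p = 0.624). Neither TDR nor EAT1 was called. BHLH142, a tapetum regulator left out by the rule, fell (log2 change -1.07, limma adjusted p = 0.0104). Of the 4 measured late anther and pollen genes of a marker list, 3 (OsC6, RTS and RAFTIN1) rose, where 7.28% of all genes were called higher. The summed linear intensity of the 4 late anther and pollen genes lay between 142 and 494 on the wild type arrays and between 1380 and 1510 on the sro arrays, and 2 of them averaged below the Magnaporthe level in wild type. Much of the wild type range came from OsC4, the gene of the 4 that was not called (limma adjusted p = 0.12). OsC4 read 5.79, 8.61 and 7.85 in wild type and 9.01, 9.01 and 9.02 in sro. That list was chosen with earlier results known, and its part in the values of TDR and EAT1 was not tested.

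IRO3 (LOC4332972, chromosome 3) is a negative regulator of the response to iron shortage. The gene table lists the alias OsIRO2 for it as well, although its number, BHLH063, is that of IRO3. It read 7.21, 7.24 and 7.39 in wild type. The sro arrays gave 7.49, 7.47 and 7.49. All sro arrays stood above wild type, by about 0.1 log2 units over replicate 3 and by more over the others, and the change missed the threshold (0.20, SE 0.07, 95% interval 0.05 to 0.36, limma adjusted p = 0.0832). It passed without wild type replicate 3 (0.26, limma adjusted p = 0.0444), with quantile normalization repeated (0.28, limma adjusted p = 0.0134) and in the 3 fits that tested fewer features (limma adjusted p = 0.0318 to 0.0474).

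Of 9 measured genes of a list on iron uptake and its control, 3 were called, all lower in sro, and 6 were not called, with a median log2 change of -0.01. Among all genes, 26.6% were called and 19.4% were called lower. In both genotypes 5 of the 9 were below the Magnaporthe level, among them NAAT1, 1 of the 3 called. NRAMP1, a metal transporter, fell from 6.46 ± 0.14 to 5.99 ± 0.12 (SD, n = 3 each; limma adjusted p = 0.0127). NAAT1, an enzyme of the synthesis of iron-chelating phytosiderophores, was below the Magnaporthe level in both genotypes (4.46 ± 0.27 and 3.80 ± 0.22, limma adjusted p = 0.0235), so no fold is given. The third was a gene of chromosome 2 that carries the alias tom1 (log2 change -0.24, limma adjusted p = 0.0247), which was matched by name alone, so its role is not given. The synthesis genes NAS1, NAS2 and NAS3 and the transporter genes YSL15, IRT1 and IRT2 were not called.

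BHLH004 (LOC4349271, chromosome 10), for which no role is given here, read 6.54, 5.49 and 6.16 in wild type. In sro it read 4.91, 5.33 and 5.16. The highest sro array, replicate 2, came within 0.2 log2 units of the lowest wild type array, also numbered 2, and the groups did not overlap. The log2 change was -0.93 (SE 0.24, 95% interval -1.48 to -0.38, limma adjusted p = 0.0372), a 1.90-fold fall. Its sro mean of 5.13 was not far above the Magnaporthe level of 4.69. The call was lost without wild type replicate 1 (-0.69, limma adjusted p = 0.0798), without wild type replicate 3 (-0.88, limma adjusted p = 0.122) and without sro replicate 1, 2 or 3 (-0.82, -1.03 and -0.94, limma adjusted p = 0.117, 0.0595 and 0.0923). Without wild type replicate 2 it stood (-1.22, limma adjusted p = 0.00388). With sro replicate 2 alone the change was -0.74 (limma adjusted p = 0.386), and the unmoderated linear model gave an adjusted p of 0.19. A second, dimmer BHLH004 probe set lay below the Magnaporthe level in both genotypes (4.42 ± 0.28 and 3.94 ± 0.23, limma adjusted p = 0.0784).

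**Figure D4:**
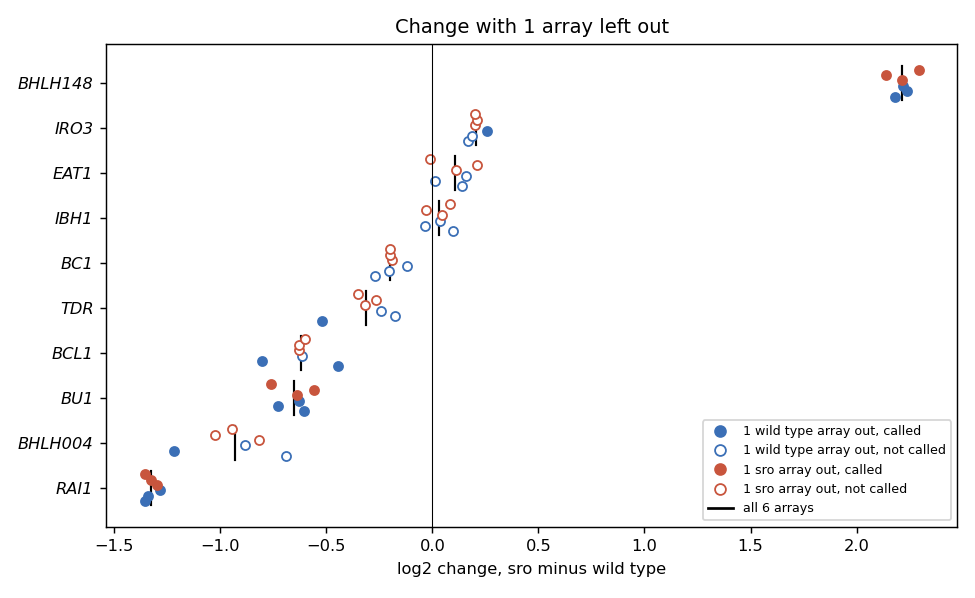
Log2 change of each measured bHLH gene with 1 array left out, blue where a wild type array and red where an sro array was left out, filled where the adjusted p was under 0.05; black bars mark the change over all 6 arrays. BHLH148, RAI1 and BU1 are filled throughout, BCL1 in 2 of 6 fits and BHLH004 in 1 of 6.

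The wild type arrays differed among themselves more than the sro arrays in 7 of the 10 bHLH genes, close to the 67.7% of all genes in which that was so. The wild type SD was widest for BHLH004 (0.53), TDR and BCL1 (0.36 each). BHLH004 and BCL1 were highest in wild type replicate 1 and lowest in replicate 2, whereas TDR was lowest in replicate 1 and highest in replicate 2. LAX1, an axillary meristem bHLH gene left out by the rule, had the former order (10.07, 8.32 and 9.51 in wild type replicates 1, 2 and 3, and 7.24 to 7.43 in sro). BHLH142, a tapetum regulator also left out, had the latter (5.73, 6.67 and 6.28, and 5.11 to 5.18 in sro). Of the 4 measured bHLH genes outside the rule that were looked up by name, LAX1 and BHLH142 fell, and ILI2 and ILI6 were not called. BHLH148 and RAI1 were not among the variable genes, with wild type SDs of 0.06 and 0.07.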

How the data were processed

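Expression was measured in 6 inflorescence samples, each hybridised to 1 array from 500 ng of total RNA as biotinylated cRNA, per the labels' protocols. The deposited values are log2 intensities per probe set, 1 column per array. RMA and Partek are named without versions in the submitters' processing notes. The log2 scale was inferred from the values. The sources used here give no settings, detection calls or scan dates.

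The values were used as deposited, leaving out 123 AFFX controls. Probe sets were paired with genes by the GEO platform annotation and RefSeq (ASM3414082v1) by gene number, and each gene is represented by the probe set with the highest mean over the 6 arrays. Genotypes were compared with limma 3.58.1 in R 4.3.3 (lmFit, eBayes without trend, no covariates, two-sided, Benjamini-Hochberg over 57258 probe sets), tested on simulated data. Groups averaging below the Magnaporthe mean were treated as without measured target. Figures used Python 3.11.15 and matplotlib 3.10.9. Limma p-values rest on the spread between these biological replicates, moderated by a spread pooled over all probe sets. The members and lists were chosen with earlier results of these data known. By the rule for named genes all 10 measured members are named. Alternatives left out arrays or changed the replicate block, moderation, normalization, array weights, filter, probe set or adjustment. Planned protein classes and promoter motifs were not analysed here.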

Additional observations from a re-analysis of the deposited data

How the results depend on the processing

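Over 16 alternative settings BHLH148 and RAI1 kept their direction and their call in all 16, BU1 kept its call in 15, BCL1 in 10 and BHLH004 in 8, each with its direction unchanged. The number of bHLH genes called, 5 in the report, was 3 to 5 with 1 array left out (1 to 2 higher and 2 to 4 lower). It was 2 in the unmoderated linear model (1 of them lower). The setting with sro replicate 2 alone was chosen after seeing the data, and only wild type gives the spread in it. The genes called higher were 2 rather than 1, with IRO3 added, after repeated quantile normalization, without dim probe sets, with the mean of a gene's probe sets and when adjusted over 1 probe set per gene; the last 3 adjust over fewer features. The share of features called moved too. Of the 57258 probe sets, 14.6% were called in the report and 8.01% without sro replicate 3. Of the 17905 genes, 26.6% were called in the report and 38% when adjusted over 1 probe set per gene. The median change of -0.25 ranged from -0.36 to -0.18 with 1 array left out and was -0.47 over the 8 genes left without dim probe sets. Signs turned only for the 2 genes below the Magnaporthe level. IBH1 was at -0.035 without wild type replicate 2, -0.032 without sro replicate 2, -0.013 after quantile normalization and -0.0063 with array weights, and EAT1 at -0.0090 without sro replicate 3 and -0.11 with sro replicate 2 alone, while their highest values with 1 array left out were 0.095 and 0.21; the cause was not tested. With the replicate number as a block, 4 genes were called (1 higher and 3 lower), BHLH004 missing the threshold (adjusted p = 0.0625) and no other call changing, but same-numbered arrays did not deviate together (correlations of -0.02, -0.03 and -0.0037 over all probe sets), so the numbers were not taken as pairs. Background correction could not be varied from the deposited values, and signal over background limits what can be said of IBH1, EAT1 and, in sro, TDR. In sro, BU1 and BHLH004 (means 5.26 and 5.13) also lay below the mean of the array medians (5.30), so the size of their falls is less certain.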

Other observations

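Genes that flank the bHLH genes on their chromosomes were also measured in part. Of 29 measured genes within 2 genes of one of the 14 bHLH genes, 6 fell and 0 rose. The falls are near the 19.4% of all genes called lower, and 7.28% of all genes were called higher. Beside TDR, the nearest genes on one side, LOC4328112 and LOC4328111, fell (log2 changes of -0.43 and -0.48, limma adjusted p = 0.00293 and 0.0153), and the nearest on the other side, LOC4328114, was not called (-0.05, limma adjusted p = 0.725). LOC4349270, which stands 2 genes from BHLH004, fell by 0.91 on the log2 scale (limma adjusted p = 0.00526), close to the -0.93 of BHLH004, and LOC4349273, 2 genes away on the other side, was not called (0.14, limma adjusted p = 0.154). BHLH148 and RAI1 had no called gene among their measured neighbours within 2 genes. For BHLH148 the measured neighbours all lay on the same side. They were LOC4334058 (0.25, limma adjusted p = 0.0857) and LOC4334057 (-0.07, limma adjusted p = 0.471). ILI3, not analysed here, stands 2 genes from ILI6, an atypical bHLH gene that promotes grain length, and ILI6 had a log2 change of 0.01 (limma adjusted p = 0.934), while LOC4331777 between them fell by 0.69 (limma adjusted p = 0.0042). The remaining falls were those of LOC4332971 next to IRO3 (-0.29, limma adjusted p = 0.0327) and LOC4343536, 2 genes from UDT1 (-0.41, limma adjusted p = 0.0308). These genes were chosen by position alone, after the values of the bHLH genes were seen.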
